A study of Mus musculus with 6 samples.

Results

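Glycolysis splits glucose into pyruvate in the cytosol, and most of its steps can be catalysed by more than 1 isozyme, each encoded by its own gene and favoured by different tissues. In the kidney the proximal tubule mainly makes glucose and burns fatty acids, while the distal nephron and medulla rely more on glycolysis. The proximal tubule also takes up fructose, which ketohexokinase, an aldolase and triokinase feed into the triose phosphates below phosphofructokinase, the main control point of glycolysis. The genes described here encode the enzymes of glycolysis and lactate exchange, the fructose, sorbitol and galactose branches, the glycerol 3-phosphate branch and the enzymes that set fructose 2,6-bisphosphate. They were chosen as a list of 38 symbols, of which 37 were listed in the tables and 32 reached 1 FPKM in at least 3 libraries, out of 11698 genes that did so. FPKM count sequenced fragments per kilobase of a transcript relative to the size of the library, so levels of different genes can be set side by side.

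Kidney RNA was measured in 3 wild-type (WT) libraries and 3 libraries labelled as a fat-1 knockin, all from mice of 24 months. The fat-1 gene comes from a nematode and encodes an enzyme that converts omega-6 to omega-3 fatty acids. Its promoter and insertion site, the strain, sex, diet and feeding state are not given in the labels used here, and expression of the transgene was not analysed here. The comparison asks what the inserted gene changes in the old kidney. Whether each library is a different mouse is not stated in the labels; the p-values then reflect only how far these samples spread, and that spread may be technical. Umod, the uromodulin gene of the thick ascending limb, measured between 425 and 1034 FPKM over the 6 libraries. The read depth is unknown, and the summed FPKM ranged from 387488 to 431081 per library.

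Libraries differed in cell markers, and some of these markers moved with genotype. Over all 7 endothelial markers the summed level was 76.3 to 93.3 FPKM in WT against 157 to 209 FPKM in fat-1, with 7 of 7 differences positive; 0 of these 7 was at 0 in any library. The 6 intercalated cell markers summed to 115 to 118 FPKM in WT against 78.5 to 89.4 FPKM in fat-1, with 1 positive difference and 5 negative. The 5 distal convoluted tubule markers summed to 350 to 512 FPKM in WT against 200 to 305 FPKM in fat-1, with 5 of 5 differences negative. The 5 podocyte markers summed to 58.1 to 68.5 FPKM in WT against 87.6 to 102 FPKM in fat-1, with 4 positive differences and 1 negative. In tissue RNA, fewer cells of a type and less RNA per cell cannot be told apart, and the part of these shifts in the values below was not tested. WT replicate 1 stood apart: its 7 macrophage and monocyte markers summed to 796 FPKM, against 91.7 to 197 FPKM in the other 5 libraries.

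Pklr, the liver and red cell type pyruvate kinase gene, rose in fat-1 kidneys and was the member that passed the test over all genes. It measured 10.7, 12.5 and 9.77 FPKM in the WT libraries against 37.2, 28.4 and 30.2 FPKM in the fat-1 libraries (means 11.0 ± 1.37 and 31.9 ± 4.66, SD, n = 3), a log2 difference of 1.46 ± 0.15 (SE) on the log2(FPKM + 1) scale (adjusted p = 0.0466, limma). This was 1 of 32 members at an adjusted p under 0.05, where 0.180% of all genes tested were called (0.120% higher and 0.0598% lower). At an unadjusted p under 0.05 there were 7 members, 6 higher and 1 lower, where 9.97% of all genes passed (5.80% higher and 4.16% lower): Pklr, Tkfc, Gpd1, Eno1, Pgm2 and Galk1 on the higher side and Pgam2 on the lower. In 9 members the groups did not overlap, 7 higher and 2 lower in fat-1, against 15.2% of all genes (8.33% higher and 6.86% lower). The median log2 difference was 0.03 over the 32 members and 0.01 over all genes tested. The call of Pklr was lost when any 1 library was left out (adjusted p between 0.0543 and 0.196), with the log2 difference between 1.34 and 1.54.

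**Figure D1:**
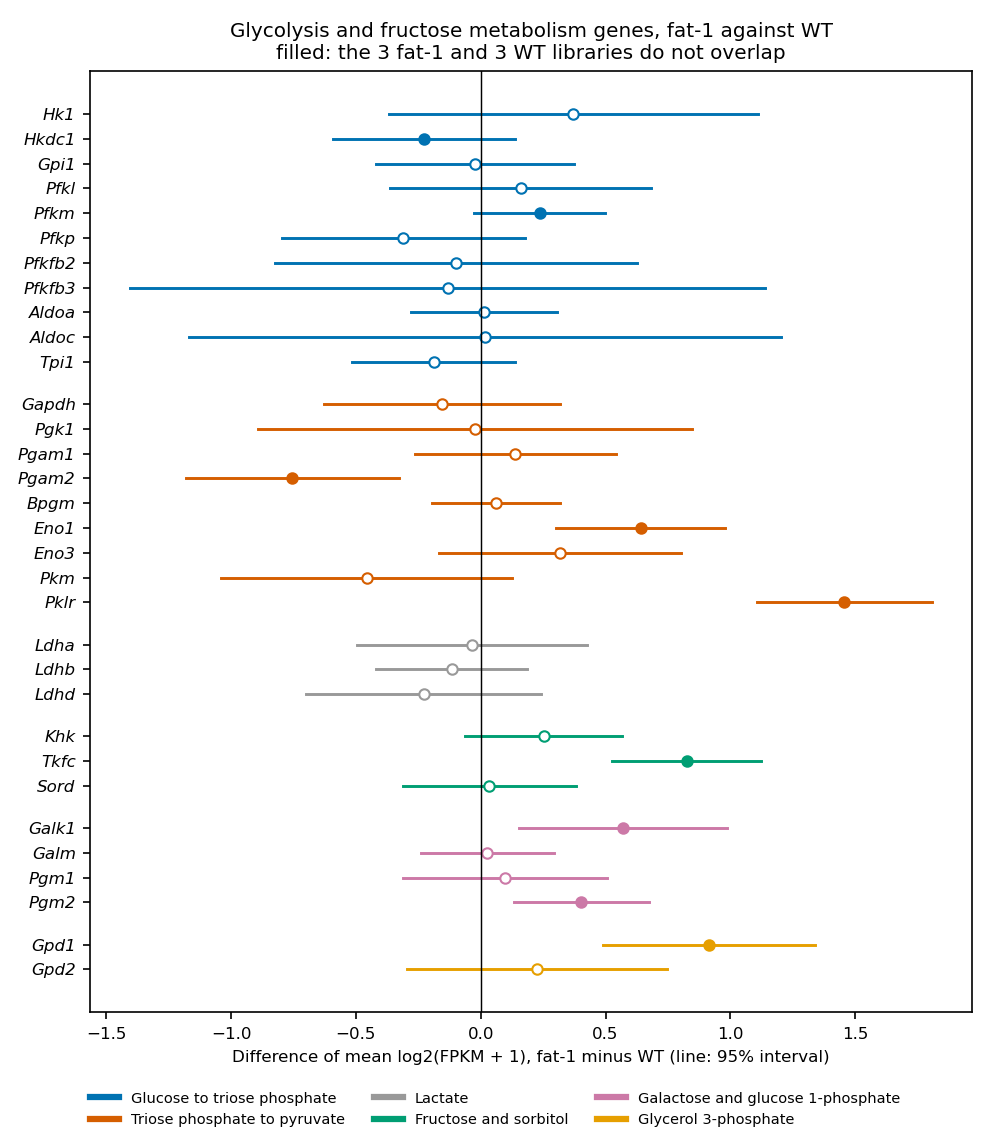
Differences between fat-1 and WT of the 32 members, as the difference of mean log2(FPKM + 1) on the horizontal axis, with points for estimates, lines for 95% intervals and colours for the branch of the pathway. Filled points mark genes whose 3 fat-1 and 3 WT libraries do not overlap. Pklr lies farthest to the right at 1.46 and Pgam2 farthest to the left at -0.75, while most points lie near 0.

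From glucose to triose phosphate, none of the 11 members tested passed. Hk1, the hexokinase of most tissues, measured 19.7, 17.0 and 10.9 FPKM in WT against 18.7, 14.6 and 30.1 FPKM in fat-1 (means 15.9 ± 4.53 and 21.1 ± 8.05, SD, n = 3), so the groups overlapped and fat-1 replicate 3 was the highest. One main transcript held 98.2 ± 0.967% of Hk1 FPKM in WT and 98.4% in fat-1, and the antisense gene Hk1os overlaps part of Hk1. Hkdc1, a hexokinase domain gene, was low in all libraries at 1.70 ± 0.0624 FPKM in WT against 1.30 ± 0.120 FPKM in fat-1 (SD, n = 3). Its 3 fat-1 libraries lay below every WT library, and the 95% limits of its log2 difference were -0.59 and 0.14. Gpi1, glucose 6-phosphate isomerase, measured 78.0, 65.6 and 51.8 FPKM in WT against 63.5, 58.7 and 67.8 FPKM in fat-1 (means 65.1 ± 13.1 and 63.3 ± 4.59, SD, n = 3). The log2 difference of Gpi1 was -0.02, with an interval from -0.42 to 0.37.

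Hk2 and Hk3, the hexokinase genes of insulin-sensitive tissues and of white blood cells, stayed under the filter, and each reached 1 FPKM in WT replicate 1 alone. Hk3 measured 8.11 FPKM there and between 0.117 and 0.495 FPKM in the other 5 libraries. Of that 8.11 FPKM, 7.22 FPKM was from the transcript Hk3-203, which was listed at 0 in the other 5 libraries. Hk2 measured 2.53 FPKM in WT replicate 1 and between 0.192 and 0.346 FPKM elsewhere. Slc16a3, a lactate exporter of glycolytic cells, followed the same pattern, at 2.02 FPKM in WT replicate 1, 0.391 FPKM in fat-1 replicate 3 and listed at 0 in the other 4 libraries. That library also had the highest macrophage marker sum, given above, and the highest sum of the 4 neutrophil markers listed, at 53.4 FPKM against 1.14 to 33.4 FPKM in the others. Of these 4, Retnlg was at 2.25 FPKM there and at 2.52 FPKM in fat-1 replicate 1, and Retnlg and S100a8 were each listed at 0 in at least 1 fat-1 library; the part of these cells in the 3 values was not tested.

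Phosphofructokinase commits sugar phosphate to glycolysis, and all 3 of its genes were expressed. Pfkm, the muscle type, was the highest, at 17.7, 18.2 and 16.1 FPKM in WT against 22.2, 20.4 and 19.2 FPKM in fat-1 (means 17.4 ± 1.07 and 20.6 ± 1.50, SD, n = 3). The groups did not overlap, but the log2 difference of 0.24 ± 0.11 (SE) did not pass (adjusted p = 0.569, limma). Pfkl, the liver type, measured 14.5 ± 2.01 FPKM in WT against 16.7 ± 4.99 FPKM in fat-1, and Pfkp, the platelet type, 7.33 ± 1.6 FPKM and 5.69 ± 1.06 FPKM (SD, n = 3). Summed over the 3 genes the step held 39.2 ± 3.88 FPKM in WT against 43.0 ± 4.56 FPKM in fat-1, with overlapping groups.

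The bifunctional Pfkfb enzymes make and remove fructose 2,6-bisphosphate, the strongest activator of phosphofructokinase, and all 4 genes were low. Pfkfb2 measured 1.78, 1.92 and 2.29 FPKM in WT against 0.747, 2.29 and 2.79 FPKM in fat-1 (means 2.00 ± 0.264 and 1.94 ± 1.06, SD, n = 3), with the lowest value in fat-1 replicate 1. Pfkfb3 measured 1.56 ± 1.37 FPKM in WT against 1.2 ± 1.04 FPKM in fat-1 (SD, n = 3), a spread as wide as its level. Pfkfb1, the liver type, was under the filter with 1.19 FPKM at most. Pfkfb4 was also under it, at 0.321, 0.386 and 0.503 FPKM in WT against 2.94, 1.85 and 0.907 FPKM in fat-1. Every fat-1 library lay above every WT library for Pfkfb4; fitted without a filter its log2 difference was 0.99 ± 0.28 (SE; adjusted p = 0.296, limma). Pfkfb4 was described after its values were seen.

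Aldolase cleaves the phosphorylated sugars into trioses, and the member genes of this step overlapped between the groups. Aldoa, the muscle type, measured 346, 372 and 326 FPKM in WT against 385, 320 and 350 FPKM in fat-1 (means 348 ± 23.2 and 352 ± 32.1, SD, n = 3), with a log2 difference of 0.01 and an interval from -0.28 to 0.31. Its main transcript held 86.9 ± 3.19% of Aldoa FPKM in WT and 85.5% in fat-1. Aldoc, the brain type, measured 3.13 ± 1.43 FPKM in WT against 3.69 ± 3.35 FPKM in fat-1, with 7.56 FPKM in fat-1 replicate 3 and 4.70 FPKM in WT replicate 1 as its highest values. Tpi1, which interconverts the 2 triose phosphates, measured 273, 290 and 315 FPKM in WT against 294, 250 and 228 FPKM in fat-1 (means 292 ± 21.3 and 257 ± 33.7, SD, n = 3). In WT the minor transcript Tpi1-203 held 1.03 ± 0.152% of Tpi1 FPKM and in fat-1 0.598 ± 0.0759%, without overlap. Here and below, minor transcripts were named because their shares did not overlap. How many of all transcripts do so was not counted, so these are descriptions and no test.

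From triose phosphate to 3-phosphoglycerate the genes were abundant and their groups overlapped. Gapdh, glyceraldehyde 3-phosphate dehydrogenase, measured 412, 295 and 462 FPKM in WT against 352, 298 and 387 FPKM in fat-1 (means 390 ± 86.1 and 346 ± 45.0, SD, n = 3). Pgk1, phosphoglycerate kinase, measured 215, 251 and 117 FPKM in WT against 119, 238 and 211 FPKM in fat-1 (means 194 ± 69.2 and 190 ± 62.4, SD, n = 3). WT replicate 3 and fat-1 replicate 1 thus held about the same low level of Pgk1, and its log2 difference had an interval from -0.89 to 0.85. The minor transcript Gapdh-212 held 1.43 ± 0.457% of Gapdh FPKM in WT and 2.66 ± 0.482% in fat-1, without overlap. The division among Gapdh transcripts was unstable: Gapdh-201 was listed at 233, 0 and 281 FPKM in WT against 0, 0 and 163 FPKM in fat-1. Both genes have processed copies in the mouse genome that were not analysed here, so reads could have been divided and the values are uncertain. Bpgm, which makes the haemoglobin effector 2,3-bisphosphoglycerate, measured 26.1 ± 1.43 FPKM in WT against 27.4 ± 1.89 FPKM in fat-1 (SD, n = 3). Bpgm had one of the narrowest intervals among the members, from -0.19 to 0.32.

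Phosphoglycerate mutase had 2 isozymes of similar level in WT, and their proportion did not overlap between the groups. Pgam2, the muscle type (chromosome 11, 5801640 to 5803733, mm10), measured 77.6, 76.9 and 108 FPKM in WT against 59.9, 47.9 and 45.7 FPKM in fat-1 (means 87.5 ± 17.8 and 51.2 ± 7.61, SD, n = 3). Every fat-1 library lay below every WT library, and the log2 difference of -0.75 ± 0.18 (SE) did not pass over all genes (adjusted p = 0.185, limma). Pgam1, the brain and general type, measured 109, 134 and 133 FPKM in WT against 169, 127 and 121 FPKM in fat-1 (means 125 ± 14.6 and 139 ± 26.4, SD, n = 3), with overlapping groups. The share of Pgam1 in the step was 58.3, 63.6 and 55.2% in WT and 73.9, 72.6 and 72.5% in fat-1 (exact permutation test, two-sided, p = 0.10; 0.34 after adjustment over 17 shares). An exact test of 3 against 3 cannot go below 0.10.

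Markers that could accompany Pgam2 were read in the same libraries. The skeletal muscle marker Ckm measured 0.832 FPKM at most and Mylpf between 1.67 and 2.65 FPKM; the other 5 of the 7 muscle markers were not analysed here. Of the 6 markers of the S3 segment of the proximal tubule, 5 had a negative difference. Their summed level was 867 to 1673 FPKM in WT against 681 to 1086 FPKM in fat-1, so it was lower on average in fat-1 with overlapping groups, and none of the 6 was at 0. The part of S3 cells in the value of Pgam2 was not tested.

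The enolase total did not overlap between the groups. Eno1, the general enolase gene (chromosome 4, 150236721 to 150248879, mm10), measured 197, 224 and 212 FPKM in WT against 375, 280 and 338 FPKM in fat-1 (means 211 ± 13.5 and 331 ± 47.7, SD, n = 3). The lowest fat-1 library lay above the highest WT library, the means differed by 1.57-fold, and the log2 difference was 0.64 ± 0.14 (SE; adjusted p = 0.162, limma). Eno3, the muscle type, measured 5.64 ± 1.76 FPKM in WT against 7.11 ± 0.581 FPKM in fat-1 (SD, n = 3), so Eno1 held 97.4 ± 0.958% of the step in WT and 97.9 ± 0.186% in fat-1. Eno2, the neuronal type, was not analysed here.

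Eno1 has a near-identical intronless copy, Eno1b, and reads could be split between them. Eno1b was listed at 12.5, 14.9 and 0 FPKM in WT against 25.9, 18.5 and 21.01 FPKM in fat-1. The sum of both genes was 209, 239 and 212 FPKM in WT against 401, 298 and 359 FPKM in fat-1, so the groups stayed apart when the copies were added. Both main Eno1 transcripts were higher on average in fat-1: the more abundant measured 148 ± 22.5 FPKM in WT against 205.1 ± 44.2 FPKM in fat-1, and the other 61.0 ± 12.7 FPKM and 123 ± 28.9 FPKM (SD, n = 3). With the highest transcript alone in place of the sum, the log2 difference of Eno1 was 0.46.

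Pyruvate kinase makes pyruvate and ATP at the end of glycolysis, and its total overlapped between the groups while the share of its isozymes did not. Pkm, the gene of the M1 and M2 forms, measured 105, 78.7 and 80.1 FPKM in WT against 58.1, 48.1 and 90.1 FPKM in fat-1 (means 87.9 ± 14.6 and 65.4 ± 21.9, SD, n = 3). Replicates 1 and 2 of fat-1 lay below every WT library and replicate 3 lay within the WT range, with a log2 difference of -0.46 ± 0.25 (SE; adjusted p = 0.644, limma). The sum of Pkm and Pklr was 98.9 ± 14.4 FPKM in WT against 97.4 ± 22.0 FPKM in fat-1 (SD, n = 3). The share of Pklr in that sum was 9.27, 13.7 and 10.9% in WT and 39.0, 37.1 and 25.1% in fat-1. These groups did not overlap (exact permutation test, two-sided, p = 0.10; 0.34 after adjustment over 17 shares).

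**Figure D2:**
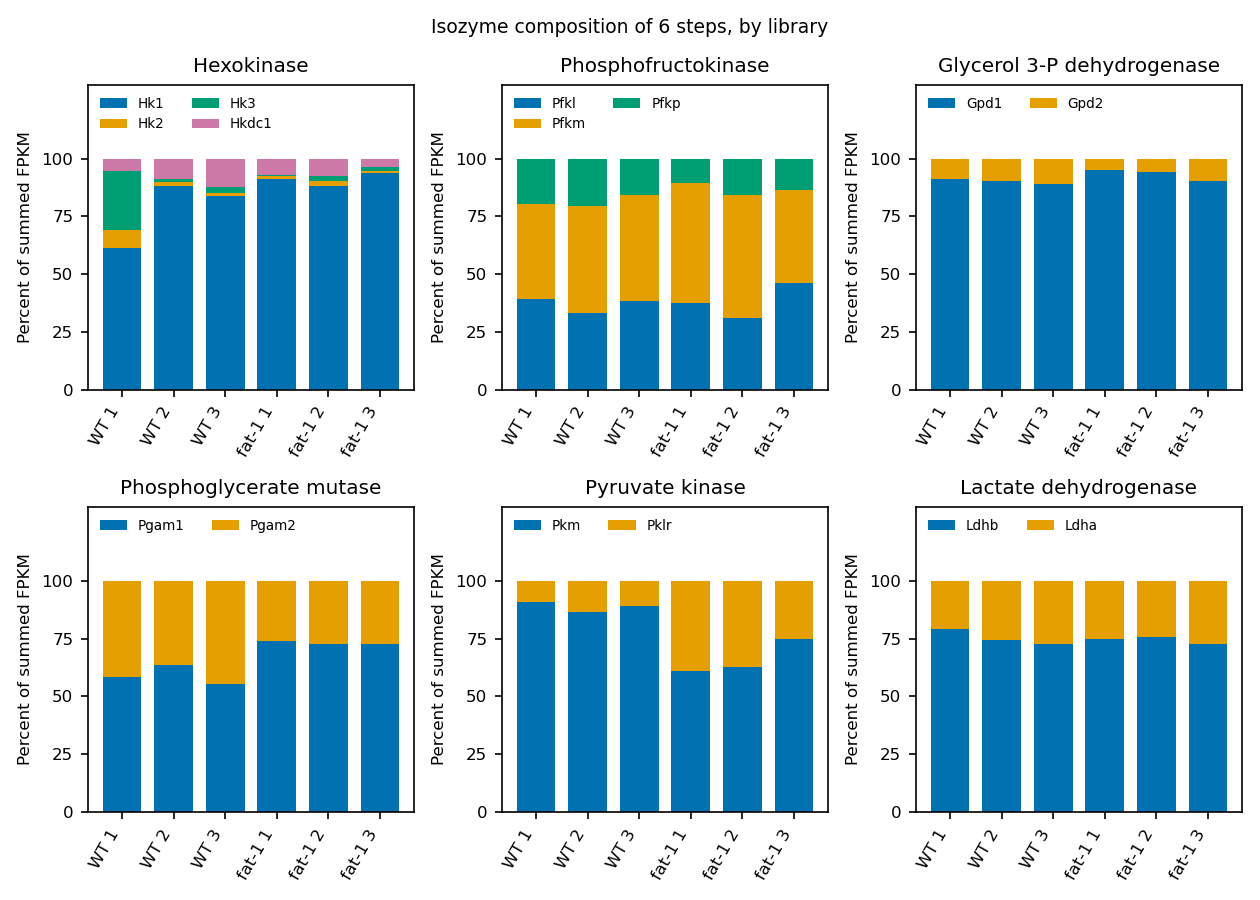
Share of each isozyme in the summed FPKM of its step, in percent on the vertical axis, for the 3 WT and 3 fat-1 libraries of 6 steps; colours stand for isozymes. The Pklr share lies between 25.1 and 39.0% in fat-1 and between 9.27 and 13.7% in WT, the Pgam1 share is higher in all 3 fat-1 libraries, and the lactate dehydrogenase bars look alike in all 6.

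Pklr lies on chromosome 3 (89136142 to 89146784, plus strand, mm10) and is read from 2 starts. The protein-coding gene Hcn3 overlaps Pklr by 711 bases on the other strand and was not analysed here. Whether the counting used strand is not stated. The upstream start is used in red cell precursors, and the downstream start in liver, kidney and intestine, where glucose and fructose feeding induce it through the transcription factor ChREBP (gene Mlxipl). The windows before both starts are printed because the gene that passed the test is known for a sugar response element in one of them. They come from RefSeq (build GRCm38.p6, the same assembly as mm10), 5′ to 3′ on the plus strand, and stop before the first annotated base of that start. Capitals mark the match to a carbohydrate response element pattern, CACGNG and CNCGTG with any 5 bases between them.
Pklr downstream start (chr3:89136373-89136571): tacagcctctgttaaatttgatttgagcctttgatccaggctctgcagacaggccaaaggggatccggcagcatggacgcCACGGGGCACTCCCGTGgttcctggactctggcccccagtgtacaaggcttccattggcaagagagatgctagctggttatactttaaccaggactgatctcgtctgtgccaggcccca
Pklr upstream start (chr3:89135892-89136141): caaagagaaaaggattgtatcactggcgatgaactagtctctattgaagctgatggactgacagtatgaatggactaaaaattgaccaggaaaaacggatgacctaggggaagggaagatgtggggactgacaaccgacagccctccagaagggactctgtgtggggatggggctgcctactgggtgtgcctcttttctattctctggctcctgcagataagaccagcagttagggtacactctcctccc

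The match lies 170 to 154 bases before the RefSeq start in the downstream window, and the upstream window has none. Searched on both strands in the 250 bases before each start, this pattern occurred in 13 of 32851 RefSeq windows (0.0396%), and Pklr was the member that held it, of 35 matched to RefSeq. The pattern was written with this promoter in mind, so its presence is a description and no test. The plain E-box CACGTG, found in neither printed window, can lie within either arm of the longer pattern; it occurred before at least 1 start of 7 members and in 6.02% of all windows. An exact form of a nuclear receptor element, AGGTCA repeated after any 1 base, occurred in 0.0335% of windows and in none of the 35 matched members. With so few windows holding it, and only exact matches within 250 bases counted, its absence from the members says little. Gpd1 and Galm had no window and were not searched for any of these patterns. Mlxipl measured 38.2 ± 5.03 FPKM in WT against 41.3 ± 9.06 FPKM in fat-1 (SD, n = 3), and the 95% limits of its log2 difference were -0.34 and 0.53.

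Transcripts of Pklr with either first exon were higher on average in fat-1. Those with the downstream first exon summed to 6.62, 8.30 and 9.77 FPKM in WT against 29.5, 24.0 and 13.1 FPKM in fat-1, and these groups did not overlap. The transcript with the upstream first exon measured 4.08, 4.16 and 0 FPKM in WT against 7.68, 4.41 and 17.1 FPKM in fat-1. The division between the starts was unstable: the upstream share was between 0 and 38.2% in WT and between 15.5 and 56.6% in fat-1, and the highest upstream value was that of fat-1 replicate 3. Within the downstream group, Pklr-203 held 14.0 ± 4.99% of Pklr FPKM in WT and 6.42 ± 1.80% in fat-1, without overlap. Transcript values of an abundant gene jumped as well: 1 main Ldha transcript was listed at 0 FPKM in WT replicate 3 and fat-1 replicate 3 and at 158 FPKM or more in the other 4 libraries. With the highest transcript in place of the sum, the log2 difference of Pklr was 1.41 (adjusted p = 0.224, limma).

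Red cell markers varied widely among the fat-1 libraries. The 6 markers summed to 138 to 242 FPKM in WT and to 540, 27.3 and 15.0 FPKM in fat-1 replicates 1, 2 and 3. Slc4a1, which also counts among the intercalated cell markers, gave 5.14, 4.84 and 7.85 FPKM of these fat-1 sums. Fat-1 replicate 1 was the highest library for the red cell markers and for Pklr. Replicates 2 and 3 of fat-1 were the lowest for those markers, with Hba-a1, a haemoglobin gene, at 6.0 and 2.08 FPKM. Pklr measured 28.4 and 30.2 FPKM in replicates 2 and 3. Without fat-1 replicate 1 the log2 difference of Pklr was 1.34. The part of red cells in the values of Pklr was not tested. The 9 markers of the S1 and S2 segments of the proximal tubule summed to 2068 to 2406 FPKM in WT against 1782 to 2690 FPKM in fat-1, with 4 positive and 5 negative differences.

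The Pkm transcripts differ by a pair of mutually exclusive exons of 167 bases, the upstream of which gives the M1 form and the downstream the M2 form. The transcript with the downstream exon (59675568 to 59675734 on chromosome 9, mm10) held 76.9, 64.3 and 81.5% of Pkm FPKM in WT against 79.0, 74.0 and 66.2% in fat-1. M1 held 21.02 ± 3.38% in WT and 17.3 ± 3.29% in fat-1 (SD, n = 3), and the rest carried neither exon. The M2 form was thus the major one in all 6 libraries, and the groups overlapped.

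**Figure D3:**
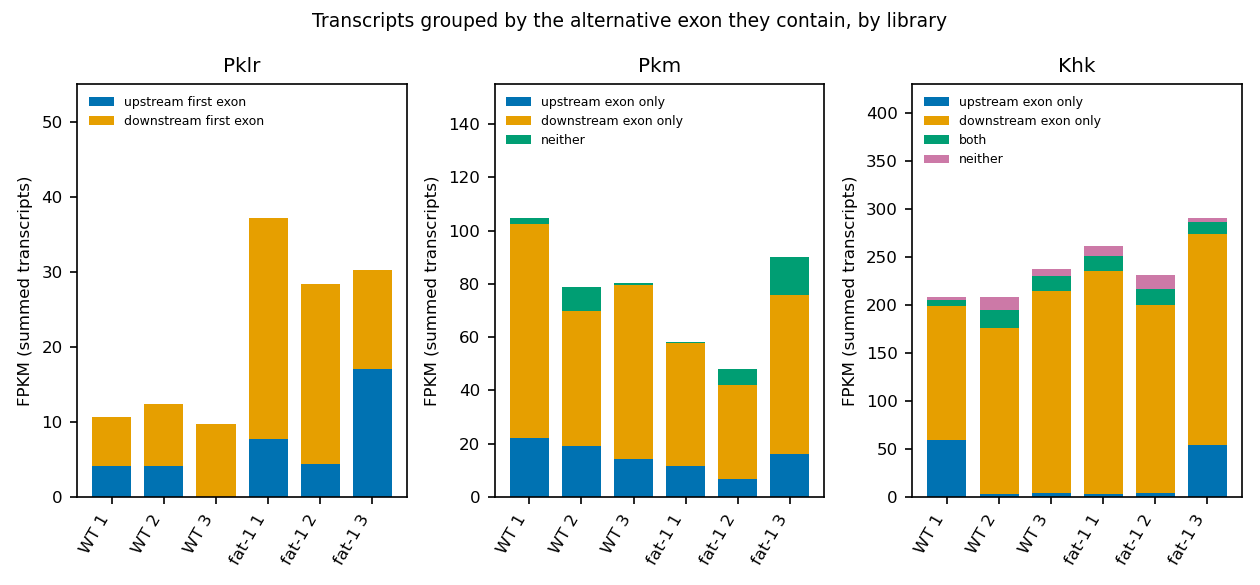
FPKM of Pklr, Pkm and Khk transcripts, summed by the alternative first exon (Pklr) or internal exon (Pkm, Khk) they contain, on the vertical axis for the 6 libraries. The Pklr bars of fat-1 stand between 28.4 and 37.2 FPKM and those of WT between 9.77 and 12.5 FPKM; the upstream exon of Khk is large in WT replicate 1 and fat-1 replicate 3, at 59.8 and 54.4 FPKM.

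Lactate dehydrogenase genes, which link pyruvate to lactate, overlapped between the groups in level and proportion. Ldhb, the heart type that dominates oxidative tissue, was the most abundant member at 714, 758 and 828 FPKM in WT against 775, 689 and 658 FPKM in fat-1 (means 767 ± 57.8 and 708 ± 60.7, SD, n = 3). Ldha, the muscle type, measured 254 ± 60.8 FPKM in WT against 244 ± 19.1 FPKM in fat-1 (SD, n = 3). The Ldhb share of both was 75.3 ± 3.26% in WT and 74.4 ± 1.51% in fat-1, and the 95% limits of the log2 difference of Ldhb were -0.42 and 0.19. Ldhd, the mitochondrial enzyme for D-lactate, measured 152 ± 37.9 FPKM in WT against 127 ± 16.3 FPKM in fat-1. Within Ldhb, the minor transcript Ldhb-204 held 3.44 ± 0.136% of FPKM in WT against 1.91 ± 0.360% in fat-1, without overlap.

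In the fructose branch the level of triokinase stood apart between the groups. Tkfc, which phosphorylates glyceraldehyde so that the rest of the fructose carbon can enter glycolysis, lies on chromosome 19 (10592200 to 10604258, mm10). It measured 90.9, 112 and 109 FPKM in WT against 181, 175 and 196 FPKM in fat-1 (means 104 ± 11.2 and 184 ± 10.4, SD, n = 3). Each fat-1 library was above every WT library by a wide margin, with a log2 difference of 0.82 ± 0.13 (SE) that missed the threshold (adjusted p = 0.0728, limma). With the summed FPKM of the libraries set equal it passed, at 0.84 (adjusted p = 0.0482, limma). This was the 1 setting of 18 alternatives in which Tkfc passed. With median-of-ratios factors its adjusted p was 0.135, and the highest over the alternatives was 0.249 (limma). Tkfc overlaps Cyb561a3 on the other strand, and whether the counting used strand is not stated; Cyb561a3 measured 4.20 ± 0.858 FPKM in WT against 4.02 ± 1.27 FPKM in fat-1 (SD, n = 3), far below Tkfc. Ddb1, which overlaps Tkfc by 328 bases, measured 66.1 ± 4.98 FPKM in WT against 80.2 ± 2.57 FPKM in fat-1.

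Of the other fructose genes, the fructose carrier had a larger difference than Tkfc, ketohexokinase a smaller one, and sorbitol dehydrogenase one near 0. Khk, ketohexokinase, which traps fructose as fructose 1-phosphate, measured 209, 208 and 238 FPKM in WT against 261, 231 and 290 FPKM in fat-1 (means 218 ± 16.8 and 261 ± 29.8, SD, n = 3). The lowest fat-1 library fell within the WT range, and the log2 difference was 0.25 ± 0.13 (SE; adjusted p = 0.633, limma). Slc2a5, the fructose carrier GLUT5, belongs to a wider list of 64 genes, most of them of sugar and pyruvate handling. It measured 16.3, 16.3 and 14.0 FPKM in WT against 30.7, 32.8 and 44.6 FPKM in fat-1. Its log2 difference of 1.15 ± 0.16 (SE) did not pass (adjusted p = 0.0655, limma), although every fat-1 library was above every WT library. Sord, which makes fructose from sorbitol, measured 602 ± 67.7 FPKM in WT against 617 ± 70.1 FPKM in fat-1 (SD, n = 3), with an interval from -0.31 to 0.38.

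Khk transcripts carry either, both or neither of 2 alternative exons of 135 bases that distinguish the A and C forms of the enzyme. The transcript with the downstream exon was the major form in all 6 libraries, at 174 ± 36.1 FPKM in WT against 216 ± 18.9 FPKM in fat-1 (SD, n = 3). The transcript with the upstream exon measured 59.8 FPKM in WT replicate 1 and 54.4 FPKM in fat-1 replicate 3, and between 2.73 and 4.56 FPKM in the other 4 libraries. This split ran across the genotypes, and the same pair of libraries had the 2 highest values of Aldoc and of Hk1. They were also the 2 libraries with the most genes at 1 FPKM or more, 12021 and 11974, against 11280 to 11456 in the others. Without both of them, a choice made after seeing the data, 0 members passed. The log2 differences of Tkfc, Gpd1, Eno1 and Pgam2 kept their sign, as groups without overlap must whichever libraries are left out.

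**Figure D4:**
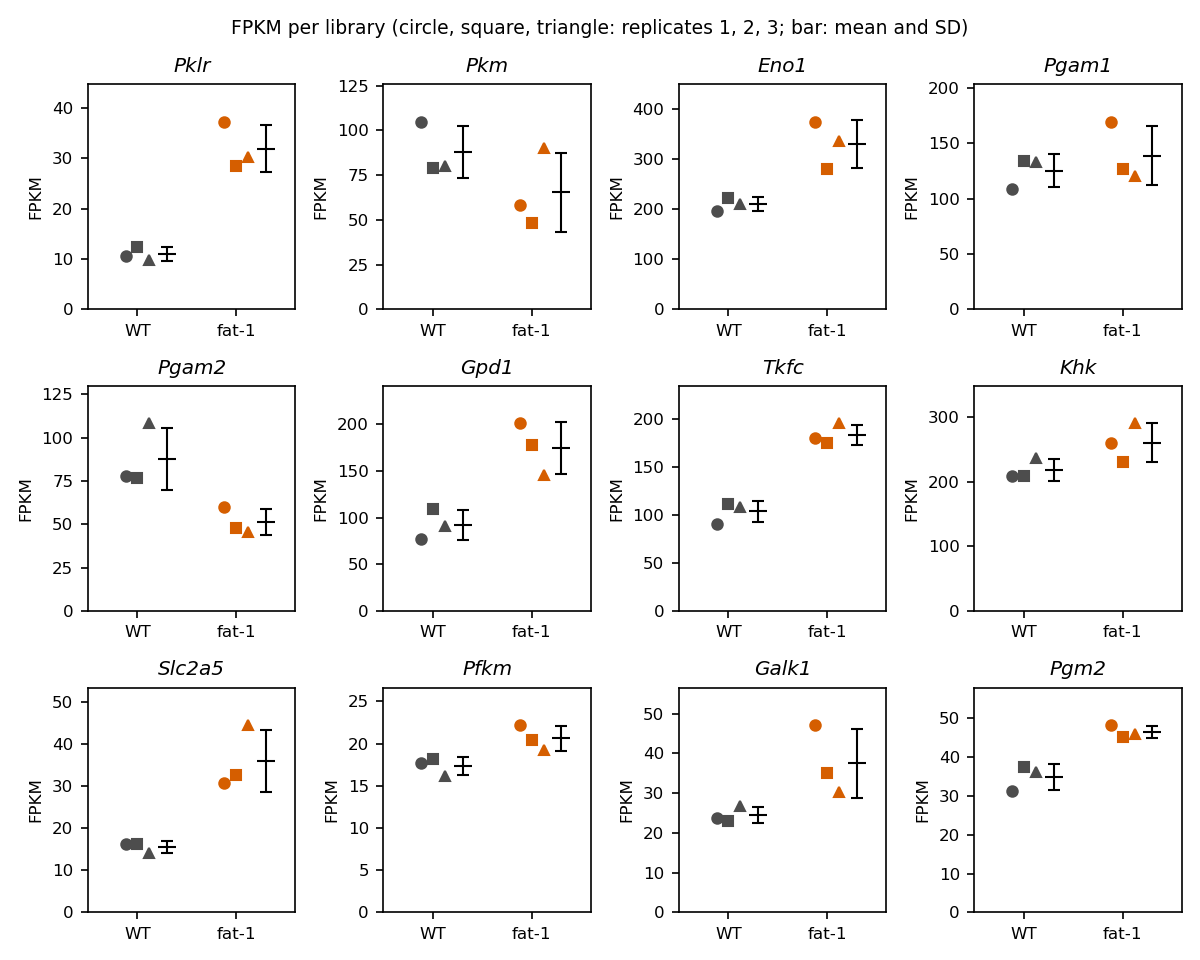
FPKM per library of 11 members and of Slc2a5 from the wider list, with FPKM on the vertical axis from 0, WT in grey and fat-1 in orange; markers give replicates 1, 2 and 3 and bars the mean and SD. Pklr, Eno1, Gpd1, Tkfc, Slc2a5, Pfkm, Galk1 and Pgm2 show fat-1 points above all WT points and Pgam2 shows them below; Pkm, Pgam1 and Khk overlap.

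Galactose enters through galactokinase and leaves as glucose 1-phosphate, which phosphoglucomutase interconverts with glucose 6-phosphate. Galk1, galactokinase (chromosome 11, 116008457 to 116012719, mm10), measured 23.7, 23.1 and 26.7 FPKM in WT against 47.1, 35.0 and 30.2 FPKM in fat-1 (means 24.5 ± 1.94 and 37.5 ± 8.72, SD, n = 3). The groups did not overlap, but fat-1 replicate 1 lay well above the other fat-1 libraries, and the log2 difference was 0.57 ± 0.18 (SE; adjusted p = 0.318, limma). Without fat-1 replicate 1 it was 0.40. Galm, the mutarotase that prepares galactose for the kinase, measured 51.9 ± 3.72 FPKM in WT against 52.9 ± 3.61 FPKM in fat-1 (SD, n = 3), with an interval from -0.24 to 0.29.

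The tables use older names for the phosphoglucomutases: the gene they call Pgm2, on chromosome 4, is Pgm1 in RefSeq, and the gene they call Pgm1, on chromosome 5, is Pgm2 there. The gene on chromosome 4 (99929414 to 99987294, mm10), the main glucose enzyme, measured 31.2, 37.5 and 36.1 FPKM in WT against 48.3, 45.1 and 46.0 FPKM in fat-1 (means 35.0 ± 3.33 and 46.4 ± 1.62, SD, n = 3). Its groups did not overlap, and the log2 difference was 0.40 ± 0.11 (SE; adjusted p = 0.261, limma). The gene on chromosome 5 measured 6.57 ± 0.899 FPKM in WT against 7.12 ± 1.27 FPKM in fat-1 (SD, n = 3).

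The glycerol 3-phosphate branch takes triose phosphate away from glycolysis, toward glycerolipids or the shuttle that passes electrons to mitochondria. Gpd1, the cytosolic dehydrogenase (chromosome 15, 99717515 to 99725005, mm10), measured 77.2, 109 and 90.8 FPKM in WT against 200.8, 177 and 146 FPKM in fat-1 (means 92.3 ± 15.9 and 175 ± 27.7, SD, n = 3). Every fat-1 library lay above every WT library and the means differed by 1.89-fold, with a log2 difference of 0.91 ± 0.18 (SE; adjusted p = 0.123, limma). An antisense gene, Gm16537, overlaps Gpd1 along most of its length and was not analysed here; without strand, reads of the pair cannot be told apart. Gpd2, the mitochondrial enzyme of the shuttle, measured 10.3 ± 2.30 FPKM in WT against 12.2 ± 2.90 FPKM in fat-1 (SD, n = 3), with an interval from -0.29 to 0.75. The Gpd1 share of both was 91.0, 90.3 and 88.8% in WT and 95.1, 94.4 and 90.4% in fat-1, which overlapped (exact permutation test, two-sided, p = 0.20; 0.378 after adjustment over 17 shares).

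Among the step totals given here, those without overlap between the groups were the enolases, at 216 ± 12.1 FPKM in WT against 338 ± 48.2 FPKM in fat-1, and the glycerol 3-phosphate dehydrogenases, at 103 ± 17.9 and 187 ± 25.1 FPKM (SD, n = 3). Sums over the hexokinases, at 21.4 ± 9.74 and 23.1 ± 8.11 FPKM, and over the lactate dehydrogenases, at 1021 ± 118 and 951 ± 73.4 FPKM, overlapped. Of the isozyme shares given here, out of 17 tested, those of Pgam1, Pklr and Pfkfb1 did not overlap between the groups. The Pfkfb1 gene reached 1 FPKM in 1 library. Each of these shares had an exact permutation p of 0.10, the smallest that 3 against 3 allows, and 0.34 after adjustment over the 17.

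The wider list held 64 genes that are not members, most of them of sugar and pyruvate handling, and 59 were tested. It also held Hif1a, Epas1, Arnt and Egln3 of the oxygen-sensing pathway. The list was chosen with earlier results of these data known, so its counts are a description and no test. Of the 59 tested, 2 rose and 0 fell at an adjusted p under 0.05, where 0.180% of all genes were called. At an unadjusted p under 0.05 there were 21, 16 higher and 5 lower, where 9.97% of all genes passed. The 2 were Pck1, the entry enzyme of gluconeogenesis, and Egln3, a prolyl hydroxylase of the oxygen-sensing pathway. Pck1 measured 242 ± 61.5 FPKM in WT against 1713 ± 169 FPKM in fat-1 (SD, n = 3), a log2 difference of 2.84 ± 0.20 (SE; adjusted p = 0.0284, limma). Egln3 measured 5.99 ± 1.01 FPKM in WT against 15.5 ± 0.509 FPKM in fat-1, a log2 difference of 1.25 ± 0.14 (SE; adjusted p = 0.0473, limma). The median log2 difference over the 59 genes was 0.14. Slc16a7, the monocarboxylate carrier MCT2, measured 19.5, 17.3 and 16.5 FPKM in WT against 8.39, 9.15 and 10.4 FPKM in fat-1, and its log2 difference of -0.87 ± 0.13 (SE) missed the threshold (adjusted p = 0.0700, limma). Slc16a1, the carrier MCT1, measured 11.8 ± 1.85 FPKM in WT against 12.5 ± 2.77 FPKM in fat-1 (SD, n = 3). Slc16a4, a related carrier, measured 27.9 ± 2.02 FPKM in WT against 46.1 ± 6.34 FPKM in fat-1 without overlap (adjusted p = 0.118, limma).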

How the data were processed

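The authors deposited FPKM per transcript, 1 table for each of the 6 libraries. Per the submitters' processing notes, the tools were HISAT2 2.0.5, DESeq2 1.20.0 and featureCounts 1.5.0-p3 with build mm10; which of them, if any, made the FPKM is not stated. The 27486 transcripts listed are all protein-coding, and each reaches 0.5 FPKM somewhere, so gene sums can be incomplete. FPKM of a gene also shifts when a few abundant genes take more of a library, and depends on how reads of near-identical genes were divided.

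Transcripts were summed per gene (13696 genes), keeping the 11698 that reached 1 FPKM in 3 or more libraries. The fit used limma 3.58.1 (R 4.3.3; trend and robust options, no covariates) on log2(FPKM + 1), a scale that understates changes of low genes; Benjamini-Hochberg adjustment covered all kept genes and the threshold was 0.05. Isozyme shares were tested by exact permutation (20 splits). One gene of the wider list, with its levels and share, is not reported here. Alternatives covered scaling, filters, pseudocounts, fit options, transcript choice and left-out libraries. On 64 lines a symbol had become a date and was restored from a name table. Whole reads were not recoverable: at most 25.4% of low values came within 0.05 of a whole multiple. No pair of libraries held an identical value above 0 in a kept gene; log2 values correlated at 0.938 to 0.972. Exons are from GENCODE M21. In 3 simulated runs of the fat-1 against WT fit over 11698 genes, 200 of the more expressed genes were altered. Of these, 53.3% of 2-fold and 92.7% of 4-fold changes were found, and 3.52% of calls were false. Each gene was drawn independently, with no shift shared by the genes of a library, so the rates may not hold for the real libraries.

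The members, gene lists and tests were chosen with earlier results of these data known. Every tested member is given with its group means; all libraries are given for members with an unadjusted p under 0.05, for those without overlap at an absolute log2 difference of at least 0.5 and for the top isozyme of a step. Members under the filter are given by their highest value, the wider list by its called genes and the 4 lowest p, and transcripts for Pklr, Pkm, Khk, Hk1, Ldha, Aldoa and members whose shares do not overlap; other genes were chosen after their values were seen. Joins used Python 3.11.15 with pandas 2.3.3, and plots matplotlib 3.10.9.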

Additional observations from a re-analysis of the deposited data

How the results depend on the processing

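The number of genes called over all genes was 21 and changed with the settings: 52 with the summed FPKM set equal, 33 with that sum taken without mitochondrially encoded genes, 10 with median-of-ratios factors, 34 with quantile normalization, 4 with no filter, 41 with a mean of at least 5 FPKM, 3 with no intensity trend, 3 with the highest transcript in place of the sum, and between 0 and 26 with 1 library left out. Members called numbered 2 with the summed FPKM set equal. They numbered 0 with no filter, no intensity trend, the highest transcript or any 1 library left out. The causes were not tested, and fits without a library also had fewer samples. Leaving out WT replicate 1 and fat-1 replicate 3 together, chosen after seeing the data, gave 0 genes and 0 members called and 16 members without overlap, where 5108 of all 11698 genes did not overlap either with 2 libraries a group. The member median was 0.0791 with a mean of at least 5 FPKM, 0.0856 with the highest transcript, and between 0.0334 and 0.0877 with 1 library left out. Signs held under all 18 alternatives for Pklr, Tkfc, Gpd1, Eno1, Pgm2, Galk1 and Pgam2. The groups of these genes did not overlap, so leaving out libraries could not change their signs. Settings that alter only the filter or the fit options could not change them either. Signs changed for small differences: Aldoa was -0.005 with median-of-ratios factors, -0.011 with the highest transcript and between -0.054 and 0.078 with a library left out; Gapdh was 0.426 and Pfkfb2 0.156 with the highest transcript. With a library left out, Gpi1 lay between -0.175 and 0.115 (0.065 without both libraries), Pgk1 between -0.35 and 0.278, Pgam1 between -0.012 and 0.231 and Pfkfb2 between -0.319 and 0.239 (-0.371 without both libraries). Isozyme shares that changed sign, in percentage points with a library left out, were those of Pfkl (-2.6 to 4.81), Aldoc (-0.0849 to 0.031), Eno1 (-0.034 to 0.833), Ldhb (-2.27 to 0.858) and Pfkfb3 (-19.3 to 2.17). Unknown depth limits what the low genes can show. No paired analysis was possible because the sample names in the labels carry no number shared between the groups; the replicate numbers used here follow the order of deposit and pair nothing.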

Other observations

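Genes of glycogen, the polyol route and sugar sensing on the wider list had mixed differences, and none passed the test over all genes. Gys1, the general glycogen synthase, measured 7.37, 10.1 and 4.20 FPKM in WT against 12.8, 13.5 and 13.3 FPKM in fat-1, while Gys2, the liver type, measured 6.86, 8.21 and 9.11 FPKM in WT against 3.08, 4.49 and 6.59 FPKM in fat-1. The groups of both genes did not overlap, in opposite directions, with log2 differences of 0.85 ± 0.27 and -0.70 ± 0.24 (SE). Txnip, a sugar-induced inhibitor of glucose uptake, measured 132, 59.3 and 41.3 FPKM in WT against 144, 134 and 164 FPKM in fat-1, with WT replicate 1 close to the fat-1 range. Arrdc4, its relative, measured 6.22 ± 3.33 FPKM in WT against 7.36 ± 1.26 FPKM in fat-1 (SD, n = 3). Akr1b3, aldose reductase, which makes sorbitol from glucose, measured 24.1 ± 1.67 FPKM in WT against 30.6, 26.9 and 82.8 FPKM in fat-1, so its mean in fat-1 rests on replicate 3.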
